A study of Eragrostis tef with 16 samples.

Results

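The vacuolar cation/proton exchangers are 3 genes of tef (Eragrostis tef, an allotetraploid cereal) among the 5824 genes with deposited values. They were chosen by their IDs and by a description that names them vacuolar cation/proton exchanger 1a (Et_3B_028509), 1b (Et_9B_064751) and 2 (Et_4B_037006). The letter B in each ID is the subgenome that the ID carries. No other gene with values shared a description or a best hit with any of the 3, so a second copy from the other subgenome was not analysed here. Each best hit was a protein of Setaria, at 86.3% identity for exchanger 1a, 88.8% for exchanger 1b and 90.9% for exchanger 2.

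Exchangers of this family sit in the membrane of the vacuole and swap protons, which proton pumps have moved into the vacuole, for calcium or another metal ion of the cytosol. They let plant cells store calcium and bring cytosolic calcium back to its resting level after a signal. In Arabidopsis, CAX1 is a main calcium loader of leaf mesophyll vacuoles, while CAX2 also carries manganese. Leaves hold much of a plant's calcium in vacuoles, since calcium arrives with the transpiration stream and is hardly exported again.

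The plants were grown in hydroponic solution, and roots and shoots were taken from plants at low or optimum calcium. There were 4 libraries in each of 4 groups: low calcium root, optimum calcium root, low calcium shoot and optimum calcium shoot. The labels give no cultivar, age, calcium dose or length of treatment, and do not say whether replicates were separate plants, so p-values measure only the spread between these libraries, which may be technical. The values are the authors' log2 values of scaled reads plus 1 on genes headed as target gene IDs. Of the listed genes, 5824 had values and 5634 had none. Shares, ranks and medians over all genes refer to those 5824, which are not taken as all genes of tef. The sources used here do not state whether the reads are from mRNA or from small RNA. The series is typed as non-coding RNA profiling, and the sample titles carry the letters mi before the library number. Higher and lower therefore refer to reads on the gene. As the tissues are bulk samples, fewer cells of a type and fewer reads per cell cannot be told apart.

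The title of 1 library, low calcium shoot replicate 4, names both tissues, and it was placed by its source name, shoot. The 15 shoot markers (chlorophyll, photosystem and carbon fixation genes) summed to 163877 to 312535 scaled reads in low calcium shoot, that library included, and to 242466 to 375584 in optimum calcium shoot. They summed to 1663 to 1813 in low calcium root and 907 to 1616 in optimum calcium root. Of the 15, 14 were higher in every shoot library than in every root library. The 4 root markers that could be found were all nicotianamine synthases, and 2 of these were higher in every root library than in every shoot library. They summed to 4932 to 39107 scaled reads in low calcium root and 17939 to 58998 in optimum calcium root, against 1600 to 2649 in low calcium shoot and 949 to 4263 in optimum calcium shoot. Gene reads per library numbered 1199854 to 2019011 in low calcium root, 2320585 to 3443266 in optimum calcium root, 1822392 to 2098752 in low calcium shoot and 2626551 to 2849519 in optimum calcium shoot. Depth was therefore lower under low calcium in both tissues, and its part in the results below was not tested. The library numbers in the titles also place every low calcium library before every optimum calcium library, and calcium cannot be told apart from that order.

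Exchanger 1a was a shoot gene in these data and its reads fell under low calcium there. In low calcium shoot its log2 values were 8.26, 9.48, 9.64 and 8.92 in replicates 1 to 4. In optimum calcium shoot they were 11.26, 11.36, 11.84 and 12.04. The highest low calcium library lay below the lowest optimum calcium library, so the groups did not overlap. In recovered reads, exchanger 1a had 279 to 656 reads per library in low calcium shoot and 2524 to 4943 in optimum calcium shoot. This was 0.0245% ± 0.00807 of gene reads in low calcium shoot and 0.123% ± 0.0358 in optimum calcium shoot (SD, n = 4 each). The log2 difference was -2.55 (SE 0.35, 95% interval -3.30 to -1.80, limma adjusted p 7.14e-05), which is 5.85-fold lower.

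In root, exchanger 1a was low at both calcium levels. Its log2 values were 5.96, 6.03, 6.53 and 6.86 in low calcium root, from 36 to 103 reads per library. They were 7.01, 7.57, 6.14 and 7.79 in optimum calcium root, from 101 to 348 reads. The groups overlapped, because optimum calcium root replicate 3 lay within the low calcium range. The log2 difference of -0.79 (SE 0.35, 95% interval -1.53 to -0.04) did not pass the limma test (adjusted p 0.157). Without optimum calcium root replicate 3 it was -1.12 and passed (limma adjusted p 0.0347). Leaving out that library also raised the genes called in root from 485 to 816 over the whole table, so more genes passed in general.

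Exchanger 1b, a gene of the same type by its description, stayed within a narrow range. Its log2 values were 6.99, 6.57, 6.62 and 7.29 in low calcium shoot and 6.76, 6.64, 6.92 and 6.68 in optimum calcium shoot. In low calcium root they were 6.71, 6.71, 6.31 and 6.73, and in optimum calcium root 6.52, 6.60, 6.76 and 6.57. All 4 groups overlapped, and the library with the ambiguous title held the highest value of the 16. The log2 difference between low and optimum calcium was 0.12 in shoot (SE 0.17, 95% interval -0.24 to 0.48, limma adjusted p 0.595). In root it was 0.00 (SE 0.17, 95% interval -0.36 to 0.36, limma adjusted p 0.996). Without low calcium shoot replicate 4 the shoot difference was -0.02.

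Exchanger 2 is numbered by its description alone, and whether it matches Arabidopsis CAX2 was not tested. It also fell under low calcium in shoot. Its log2 values were 5.49, 5.92, 4.59 and 6.08 in low calcium shoot and 6.55, 6.23, 6.70 and 6.82 in optimum calcium shoot. The groups did not overlap, and low calcium shoot replicate 3 stood lowest, with 19 reads against 40 to 60 in the other low calcium shoot libraries. The log2 difference was -1.05 (SE 0.26, 95% interval -1.60 to -0.51, limma adjusted p 0.00550), which is 2.07-fold lower. Without low calcium shoot replicate 3 it was -0.74 (limma adjusted p 0.00582).

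In root, exchanger 2 had log2 values of 6.21, 6.41, 6.12 and 6.04 under low calcium and 6.60, 6.73, 6.67 and 6.84 under optimum calcium. The groups did not overlap, with every low calcium library below every optimum calcium library. The log2 difference of -0.52 (SE 0.26, 95% interval -1.06 to 0.03) did not pass over all genes and libraries (limma adjusted p 0.199). When the root libraries were fitted alone, the same difference passed (limma adjusted p 0.0442). That fit called 831 genes in root over the whole table, against 485 with all libraries. The fit over all libraries uses 1 spread per gene for the 4 groups. Exchanger 2 varied most in low calcium shoot, with an SD of 0.67 against 0.16 in low calcium root. Without low calcium shoot replicate 3 the root difference still did not pass (limma adjusted p 0.0715). Why the fits differ was not tested.

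**Figure D1:**
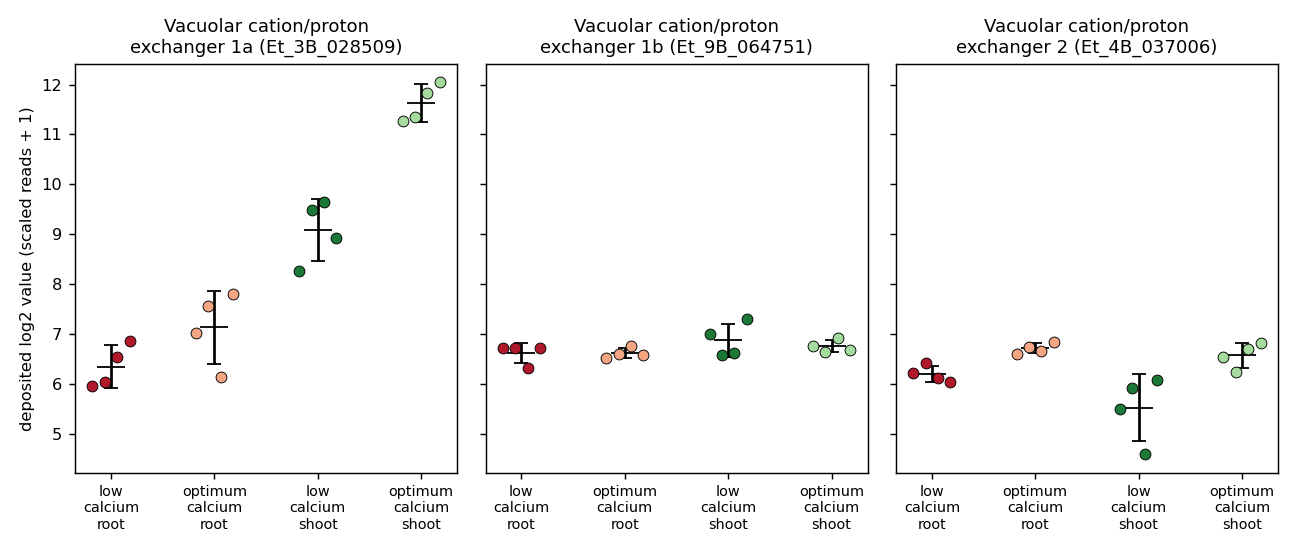
Deposited log2 value (vertical axis) of each exchanger in the 4 libraries of each group (horizontal axis), with replicates 1 to 4 from left to right; the black bars are the mean and SD of 4 libraries. Exchanger 1a stands at 8.26 to 9.64 in low calcium shoot and at 11.26 to 12.04 in optimum calcium shoot, while exchanger 1b stays between 6.31 and 7.29 in all groups.

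Of the 3 exchangers, 2 were called lower under low calcium in shoot, 1 was not called and 0 were higher. Over all genes 39.4% were called in shoot, 20.9% lower, and groups did not overlap for 31.1%, 17.0% with low calcium below. In root 0 of the 3 were called, where 8.33% of all genes were, and 1 had low calcium below optimum calcium with no overlap, as 9.53% of all genes did (21.5% in either direction). A call in shoot was thus common for any gene. By the size of its fall, exchanger 1a had the second most negative log2 difference of the 5824 genes in shoot, behind cation/H+ antiporter 20, described below. Exchanger 2 ranked 171st from the most negative. By p-value exchanger 1a ranked 159th in shoot. All genes together had a median log2 difference of -0.12 in shoot and -0.03 in root. Median-ratio scaling put the shoot median at 0.00155. Under it the log2 differences were -2.43 for exchanger 1a and -0.93 for exchanger 2, both still called.

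The calcium response of exchanger 1a was more negative in shoot than in root, but this difference was close to the threshold. The difference between the responses (root minus shoot) was 1.76 (SE 0.50, 95% interval 0.71 to 2.82, limma adjusted p 0.0426), where 7.40% of all genes passed this test and 1.82% passed with a positive difference. It lost the call in 11 of the 16 fits that left out 1 library, with differences between 1.43 and 1.98 over these 16. It also lost it with scaling by total gene reads (1.56, limma adjusted p 0.0655) and with voom (1.61, limma adjusted p 0.102). Among the fits with 1 library left out, the call was lost without low calcium root replicates 2, 3 and 4, low calcium shoot replicates 1 and 4, optimum calcium root replicates 1 and 3, and any of the 4 optimum calcium shoot replicates (limma adjusted p 0.0511 to 0.0889). For exchanger 1b the difference was -0.12 (SE 0.24, limma adjusted p 0.821) and for exchanger 2 it was 0.54 (SE 0.36, 95% interval -0.24 to 1.31, limma adjusted p 0.420).

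Between tissues, exchanger 1a was called lower in root at both calcium levels. Under low calcium its mean log2 value was 6.34 ± 0.42 in root and 9.08 ± 0.62 in shoot (SD, n = 4 each), a log2 difference of -2.73 (SE 0.35, limma adjusted p 4.46e-06). Under optimum calcium it was 7.13 ± 0.74 in root and 11.63 ± 0.38 in shoot (SD, n = 4 each), a log2 difference of -4.50 (SE 0.35, limma adjusted p 8.93e-09). Calls between tissues were frequent over all genes. Under low calcium 56.9% were called, 28.4% higher in root and 28.4% lower, and 26.3% lay lower in root with no overlap. Under optimum calcium 66.6% were called, 32.9% higher in root and 33.7% lower, and 31.8% lay lower in root with no overlap. The order of its levels was optimum calcium shoot, low calcium shoot, optimum calcium root and low calcium root, and only the 2 root groups overlapped.

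Exchanger 2 differed between tissues under low calcium, with a mean of 6.19 ± 0.16 in root and 5.52 ± 0.67 in shoot (SD, n = 4 each). The log2 difference was 0.67 (SE 0.26, limma adjusted p 0.0348), although the groups overlapped. This call was lost without low calcium root replicates 1, 2 and 3 and low calcium shoot replicates 1 and 3 (limma adjusted p 0.0511 to 0.121), and without low calcium shoot replicate 3 the difference was 0.36. It was also lost with the low calcium libraries fitted alone (limma adjusted p 0.0927). Under optimum calcium exchanger 2 had means of 6.71 ± 0.10 in root and 6.57 ± 0.25 in shoot (SD, n = 4 each), a log2 difference of 0.14 (SE 0.26, limma adjusted p 0.652). With voom that difference was 0.59 and passed (limma adjusted p 0.0153), and with scaling by total gene reads it was 0.59 and did not pass (limma adjusted p 0.0776). Both settings also put the median over all genes at 0.41, against -0.04 with the deposited scaling and 0.02 with median-ratio scaling. Its levels stood in the order optimum calcium root, optimum calcium shoot, low calcium root and low calcium shoot, and each neighbouring pair overlapped.

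Exchanger 1b was not called between tissues. Its mean was 6.62 ± 0.20 in low calcium root and 6.87 ± 0.34 in low calcium shoot, and 6.61 ± 0.10 in optimum calcium root and 6.75 ± 0.12 in optimum calcium shoot (SD, n = 4 each). The log2 difference, root minus shoot, was -0.25 under low calcium (SE 0.17, limma adjusted p 0.218) and -0.13 under optimum calcium (SE 0.17, limma adjusted p 0.496). Scaling by total gene reads gave 5.02e-05 under low calcium and 0.32 under optimum calcium. It moved the median over all genes alike, to 0.27 under low calcium, against 0.01 with the deposited scaling, and to 0.41 under optimum calcium, against -0.04. Its order of levels was low calcium shoot, optimum calcium shoot, low calcium root and optimum calcium root, and all neighbours overlapped.

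**Figure D2:**
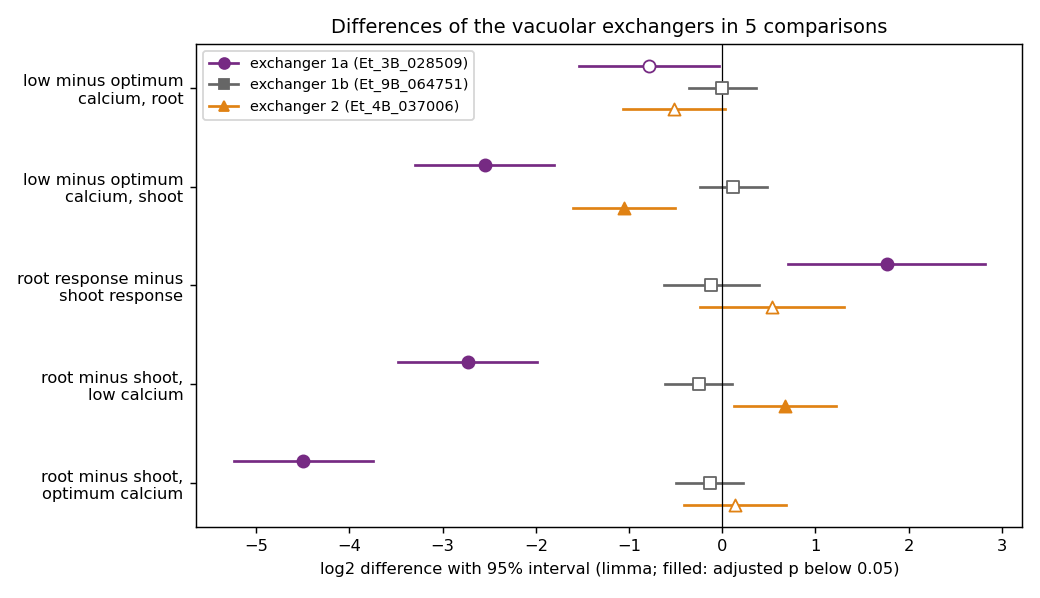
Log2 differences (horizontal axis) of the 3 exchangers in 5 comparisons (rows), with 95% intervals from limma; filled symbols have an adjusted p below 0.05. Exchanger 1a lies at -2.55 for low minus optimum calcium in shoot and at -0.79 in root, and the intervals of exchanger 1b include 0 in every row.

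The ratio of reads of 2 exchangers within a library does not depend on how that library was scaled. Its level also carries the lengths of the genes, which are not given, so only its changes are read here. The log2 ratio of exchanger 1a over exchanger 1b was 1.28, 2.92, 3.04 and 1.64 in low calcium shoot and 4.52, 4.73, 4.93 and 5.38 in optimum calcium shoot. These groups did not overlap, and the mean ratio was lower under low calcium by a log2 difference of -2.67. The log2 ratio of exchanger 1a over exchanger 2 was 2.80, 3.58, 5.11 and 2.86 in low calcium shoot and 4.73, 5.14, 5.15 and 5.24 in optimum calcium shoot. Here low calcium shoot replicate 3 lay among the optimum calcium values, since it had the highest level of exchanger 1a and the lowest level of exchanger 2 in its group. The mean difference was -1.48, and -1.99 without that library.

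The log2 ratio of exchanger 1b over exchanger 2 was higher in every low calcium library than in every optimum calcium library of the same tissue. In shoot it averaged 1.37 ± 0.59 under low calcium and 0.18 ± 0.23 under optimum calcium (SD, n = 4 each), a difference of 1.19. In root it averaged 0.43 ± 0.22 under low calcium and -0.10 ± 0.15 under optimum calcium (SD, n = 4 each), a difference of 0.52. Exchangers 1a and 2 did not separate in this way in root: the log2 ratio of 1a over 2 averaged 0.15 ± 0.57 under low calcium and 0.42 ± 0.68 under optimum calcium (SD, n = 4 each), and the groups overlapped. These ratios are given without a test, and how often other pairs of genes separate was not counted. Among single genes, the calcium groups did not overlap for 31.1% in shoot and 21.5% in root. Exchanger 1a in shoot and exchanger 2 in both tissues already separated by themselves, so the ratios in part repeat those results.

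**Figure D3:**
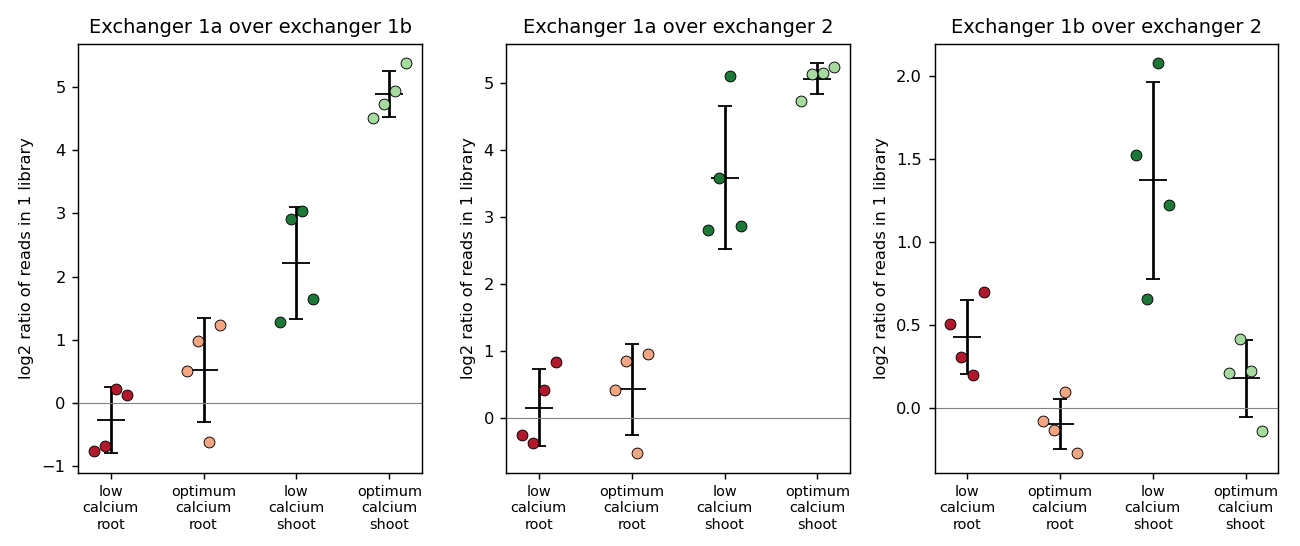
Log2 ratio of the recovered reads of 2 exchangers within each library (vertical axis) by group (horizontal axis), with replicates 1 to 4 from left to right and the mean and SD of 4 libraries in black. The ratio of exchanger 1a over 1b lies at 1.28 to 3.04 in low calcium shoot and 4.52 to 5.38 in optimum calcium shoot; the vertical axes of the panels differ.

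The 3 exchangers did not follow each other over the 16 libraries. Pearson's r of their log2 values was 0.22 between 1a and 1b, 0.01 between 1a and 2, and -0.08 between 1b and 2 (Spearman's rho 0.13, 0.09 and -0.16). All such values are descriptions, as the points share libraries, scaling and tissue. The 5 genes most like exchanger 1a by Pearson's r had r from 0.96 to 0.98 and rho from 0.94 to 0.99. They were a probable potassium transporter 2 (Et_3B_030202), a gene described by a shortened poly ADP-ribose entry (Et_1A_005626), calmodulin-binding protein 60 D (Et_1B_010395), a disease resistance protein RPM1 (Et_8B_059100) and an uncharacterized protein (Et_3B_030682). Each was higher in shoot than in root at both calcium levels by its group means, and each fell under low calcium in shoot. The log2 differences lay between -1.48 (the potassium transporter, limma adjusted p 1.10e-04) and -0.65 (calmodulin-binding protein 60 D, limma adjusted p 0.0107). These genes were picked by likeness over the same 16 libraries, so this shared pattern follows from the choice and is no separate result.

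Likeness was weaker for the other exchangers, whose most alike genes were picked in the same way. The 5 genes most like exchanger 1b had r from 0.70 to 0.79, led by an uncharacterized protein (Et_9A_062193) and followed by auxin response factor 12 (Et_7A_050960), beta-glucosidase 7 (Et_4A_033560), an expressed protein (Et_3B_030679) and protease Do-like 9 (Et_1A_007859). Of these 5, Et_9A_062193 and Et_3B_030679 rose in shoot, with log2 differences of 0.92 (limma adjusted p 0.0204) and 0.64 (limma adjusted p 0.0334). The 5 genes most like exchanger 2 had r from 0.77 to 0.85. They were an uncharacterized protein (Et_1B_013187), EEF1A lysine methyltransferase 2 (Et_3A_024693), protein arginine N-methyltransferase 5 (Et_1B_012653), a second uncharacterized protein (Et_9B_065440) and the receptor-like kinase ANXUR2 (Et_3A_026024). Of these 5, Et_1B_013187 passed in shoot, with a log2 difference of -0.65 (limma adjusted p 0.00543).

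Other calcium transport genes moved in both directions and none fell by as much as exchanger 1a. Of 26 such genes, 4 rose, 6 fell and 16 did not pass in shoot, where 18.5% of all genes rose and 20.9% fell. Their median log2 difference in shoot was -0.18, against -0.12 over all genes. Changes given for this and the following lists are log2 differences, low minus optimum calcium. The most negative was CSC1-like protein RXW8 (Et_10B_003543, chosen after its values were seen), with -1.16 (limma adjusted p 0.00743). A second RXW8 gene (Et_10A_001487, chosen likewise) had -0.88 (limma adjusted p 0.0280), and -0.55 without low calcium shoot replicate 4 (limma adjusted p 0.101). Its call was also lost without optimum calcium shoot replicates 1, 2 and 3, with median-ratio and total scaling, and with the shoot libraries alone (limma adjusted p 0.0530 to 0.0690). The piezo-type mechanosensitive channels fell, with -0.88 (Et_3A_023857, limma adjusted p 0.00653) and -0.89 (Et_3B_028319, limma adjusted p 0.00961). Cyclic nucleotide-gated channel 17 (Et_6B_049571), of a family of calcium-permeable channels, fell by 0.74 (limma adjusted p 0.00430), and the probable channel 6 (Et_7A_051916) fell by 0.49 (limma adjusted p 0.00946). The call of channel 6 was lost with scaling by total gene reads (limma adjusted p 0.117) and with voom (limma adjusted p 0.124). Annexin-like protein RJ4 (Et_9B_064255), of a family of calcium-binding membrane proteins, rose by 0.66 in shoot (limma adjusted p 0.0130, and 0.0619 with the shoot libraries alone). Another RJ4 gene (Et_9A_061676, named after its values were seen) had 0.67 in shoot and did not pass (limma adjusted p 0.0800). The other 3 that rose were chosen after their values were seen: the mitochondrial calcium uniporter protein 6 (Et_10A_001249, 0.77, limma adjusted p 0.00595), mechanosensitive ion channel protein 6 (Et_1A_008386, 1.43, limma adjusted p 0.00512) and a cation/calcium exchanger 1 gene described below. Another uniporter protein 6 gene (Et_6A_048187, named likewise) had 0.21 in shoot and did not pass (limma adjusted p 0.408).

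In root 2 of the 26 rose, 0 fell and 24 did not pass, where 5.32% of all genes rose. The median log2 difference was 0.05, against -0.03 over all genes. Both that rose were cation/calcium exchanger 1 genes, which belong to the same superfamily of cation exchangers. Another gene of that description (Et_4A_035362, named after its values were seen) did not pass in either tissue. It had 0.77 in root (limma adjusted p 0.0704) and 0.36 in shoot (limma adjusted p 0.261). Et_4B_036379 rose by 0.90 (limma adjusted p 0.0390). It did not pass without low calcium root replicates 1, 2 and 4, optimum calcium root replicates 2 and 4 or optimum calcium shoot replicate 2 (limma adjusted p up to 0.110), or with the root libraries alone (limma adjusted p 0.0541). Et_10A_001931, chosen after its values were seen because the count is small, rose by 2.12 in root (limma adjusted p 0.0247). Its root call was lost without low calcium root replicates 1, 2 and 4 and optimum calcium root replicates 2 and 4 (limma adjusted p up to 0.0775) and with voom (0.0614). It rose by 1.64 in shoot (limma adjusted p 0.0195), which was lost without low calcium shoot replicate 2 and optimum calcium shoot replicate 3 (0.0715 and 0.0659).

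All 3 other cation/proton antiporters in the table passed in shoot, 1 higher and 2 lower, where 39.4% of all genes were called. Cation/H+ antiporter 20 (Et_9A_063199), which in Arabidopsis acts in potassium balance of guard cells, had 2.55 to 5.94 on the log2 scale in low calcium shoot and 7.04 to 8.40 in optimum calcium shoot, a log2 difference of -3.77 (SE 0.63, limma adjusted p 3.63e-04). The chloroplast K+ efflux antiporter 3 (Et_10B_002882) fell by 0.98 (limma adjusted p 0.0299). Cation/H+ antiporter 19 (Et_10B_002984) rose by 1.27 (limma adjusted p 0.0353). The calls of K+ efflux antiporter 3 and antiporter 19 were each lost in 5 of 16 fits that left out 1 library (limma adjusted p up to 0.116 for each). Both were lost without optimum calcium shoot replicates 1, 2 and 3 or low calcium shoot replicate 2, that of K+ efflux antiporter 3 also without low calcium shoot replicate 4, and that of antiporter 19 also without low calcium shoot replicate 3. With the shoot libraries alone neither passed (limma adjusted p 0.0642 and 0.0991). The call of K+ efflux antiporter 3 was also lost with median-ratio scaling (0.0501) and total scaling (0.0660), and that of antiporter 19 with voom (0.202). None of the 3 passed in root, with log2 differences of -0.38 for antiporter 20, -0.17 for K+ efflux antiporter 3 and 0.36 for antiporter 19, where 8.33% of all genes were called. No gene with values was described as a vacuolar proton ATPase or a vacuolar pyrophosphatase, the pumps that supply the exchangers with protons, so these were not analysed here.

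The list of other vacuolar or divalent metal transporters was drawn by description words and also holds aluminum-activated malate transporters. Of its 10 genes, 0 rose, 2 fell and 8 did not pass in shoot, and 1 rose and 0 fell in root. Over all genes 18.5% rose and 20.9% fell in shoot, and 5.32% rose in root. The median log2 difference of the 10 was -0.44 in shoot and -0.27 in root, against -0.12 and -0.03 over all genes. The 2 that fell were both probable magnesium transporters NIPA4, with -1.10 (Et_6A_047436, limma adjusted p 0.0112) and -0.84 (Et_6B_049375, limma adjusted p 0.0282). The call of Et_6B_049375 was lost without low calcium shoot replicates 2 and 4 and optimum calcium shoot replicates 1, 2 and 3 (limma adjusted p up to 0.106). It was also lost with median-ratio scaling, total scaling, voom and the shoot libraries alone (limma adjusted p 0.0526 to 0.0830). Aluminum-activated malate transporter 10 (Et_1B_014332), of a family of anion channels, rose by 1.95 in root (limma adjusted p 0.0285). That call was lost without low calcium root replicates 1, 2 and 4 and optimum calcium root replicates 2 and 4 (limma adjusted p up to 0.0969).

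Kinases and sensors that decode calcium include partners of this exchanger family: in Arabidopsis the CBL-interacting kinase SOS2 acts on CAX1. Of 21 such genes, 1 rose, 7 fell and 13 did not pass in shoot, with a median log2 difference of -0.31, where 18.5% of all genes rose, 20.9% fell and the median was -0.12. In this list 0 rose and 2 fell in root, where 8.33% of all genes were called in either direction and 5.32% were called higher. The 1 that rose, a calcium-dependent protein kinase 1 (Et_9B_064669, chosen after its values were seen), rose by 0.79 (limma adjusted p 0.0492) and lost the call in 13 of 16 fits that left out 1 library (limma adjusted p up to 0.148). The 2 that fell in root, both described as CBL-interacting protein kinase 9, fell in shoot as well. Et_4A_032628 fell by 0.96 in shoot (limma adjusted p 0.0106) and fell by 1.36 in root (limma adjusted p 0.0115). Et_4B_036730 fell by 1.20 in shoot (limma adjusted p 0.00506) and fell by 1.30 in root (limma adjusted p 0.0186, lost without low calcium root replicates 1, 2 and 4 and optimum calcium root replicate 4 at up to 0.0677, and with voom at 0.0661). Calcium-dependent protein kinases 4 (Et_1A_007932, -1.63), 12 (Et_7B_054972, -1.10) and 9 (Et_4A_033473, -0.86) fell in shoot (limma adjusted p 0.0132, 0.00270 and 0.00617). A second calcium-dependent protein kinase 4 gene (Et_1B_014187) fell by 1.39 (limma adjusted p 0.0369), and had -0.83 without optimum calcium shoot replicate 3, where it did not pass (limma adjusted p 0.119). Its call was also lost without low calcium shoot replicates 1, 3 and 4 and optimum calcium shoot replicate 1, and with median-ratio scaling, total scaling, voom and the shoot libraries alone (limma adjusted p up to 0.0942). The remaining gene that fell in shoot was the sensor calcineurin B-like protein 3 (Et_4B_037384, -0.49, limma adjusted p 0.0140). Another gene of that description (Et_4A_033195) had -0.26 and did not pass (limma adjusted p 0.238). Both were named after their values were seen, and other settings were not examined for them.

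**Figure D4:**
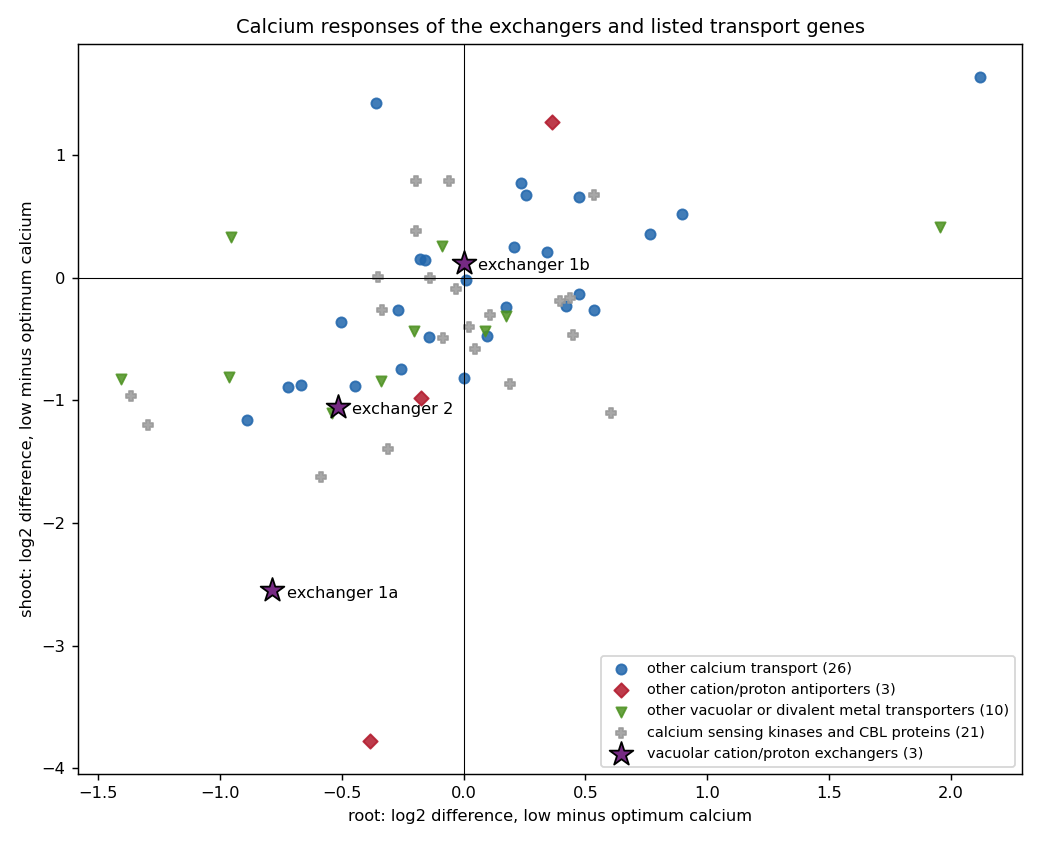
Log2 difference between low and optimum calcium in root (horizontal axis) and in shoot (vertical axis) for the 3 exchangers (stars) and 4 lists of genes, whose sizes stand in the legend. Exchanger 1a at -2.55 in shoot is passed downward by cation/H+ antiporter 20 alone, at -3.77.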

How the data were processed

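The authors deposited log2 values per gene, per the file headers for 16 libraries, and beside each gene a best hit in another grass with, as the authors deposited it without a header, a number read here as percent identity. For aligner, build and counter, the sources used here give no name. Undoing the log2 and the added 1 left multiples of a single step in each library, whole for 100% of 93184 values (tolerance 0.1 step), which gave whole reads. The deposited small RNA length block (16 columns) was not used. Columns were matched to samples by tissue letter and number.

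The design assumed either log2 values or counts, and the test named for log2 values was used: limma with an intensity trend over 5824 genes and all 16 libraries, 1 coefficient per group, Benjamini-Hochberg adjustment over all genes, threshold 0.05. The added 1 understates the changes of low genes. The 3 members, the lists of description words and the rule for named genes (members, the 5 genes most like each, and from each list up to 6 that passed by mean value, or 2 if none) were chosen with earlier results of these data known. The members' reads ranged from 19 to 4943 per library. A gene's reads may be divided between near-identical copies of the 2 subgenomes: 3594 of 5606 described genes share a description. Alternatives were median-ratio and total scaling, a filter of 20 CPM, a pseudocount of 0.1, a replicate block, fits on part of the libraries, a log2 difference of at least 1, voom on recovered reads, 1 read added to ratios, and leaving out each library. Levels and ratios under other settings were added after seeing the data. The limma script was tested on simulated data. Python 3.11.15 (numpy 2.4.6, pandas 2.3.3, scipy 1.17.1, matplotlib 3.10.9) and R 4.3.3 (limma 3.58.1) were used.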

Additional observations from a re-analysis of the deposited data

Results flagged for a closer look

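Exchanger 1a had calcium responses that differed between root and shoot by 1.76 (root minus shoot) when that difference was itself tested (limma adjusted p 0.0426). The same test was passed by cation/H+ antiporter 20 (Et_9A_063199, 3.39, limma adjusted p 0.0305) and calcium-dependent protein kinase 12 (Et_7B_054972, 1.71, limma adjusted p 0.00637). Calcium-dependent protein kinase 9 (Et_4A_033473, 1.05, limma adjusted p 0.0464) passed it too. Mechanosensitive ion channel protein 6 (Et_1A_008386) passed it in the opposite direction, at -1.79 (limma adjusted p 0.0359). Over all genes 7.40% passed. Whether these other genes keep the call in other settings was not examined.

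Of 168 groups of 4 libraries, 6 held a value far from the other 3, where chance gives about 1 in 20. Exchanger 1b was low in low calcium root replicate 3, at a log2 value of 6.31. Annexin-like protein RJ4 (Et_9B_064255) stood at 9.17 in the same library, aluminum-activated malate transporter 10 (Et_1B_014332) at 7.61 in low calcium root replicate 1, and calcium-dependent protein kinase 4 (Et_1B_014187) at 11.9 in optimum calcium shoot replicate 3. Protease Do-like 9 (Et_1A_007859) stood at 6.78 in optimum calcium root replicate 3, and protein arginine N-methyltransferase 5 (Et_1B_012653) at 6.7 in low calcium shoot replicate 3.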

How the results depend on the processing

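The falls of exchanger 1a (-2.74 to -2.28) and exchanger 2 (-1.24 to -0.74) in shoot kept their call under each alternative run, and so did the tissue differences of exchanger 1a. With a replicate block the shoot difference of exchanger 1a had a limma adjusted p of 1.25e-04 at an unchanged -2.55. Same-numbered libraries did not deviate together (correlations -0.405 to 0.302), so the numbers are not taken to pair samples, and the block changed no call of an exchanger. Of the other named genes examined in these settings, the block ended the shoot calls of antiporter 19 (Et_10B_002984, limma adjusted p 0.0519) and calcium-dependent protein kinase 1 (Et_9B_064669, 0.0772). The difference between responses of exchanger 1a was 1.56 with total scaling and 1.61 with voom, not called in either, and 1.43 to 1.98 with 1 library left out. Exchanger 2 in root was called with root libraries alone (-0.52), and its optimum calcium tissue difference with voom (0.59). Its low calcium tissue difference of 0.67 was not called with low calcium libraries alone or with a log2 difference of at least 1 required, and was 0.36 to 0.86 with 1 library left out. In root, exchanger 1a was -1.12 to -0.56 with 1 library left out. Exchanger 1b was never called, and its sign changed: in root with total scaling (-0.0085) and voom (-0.016), from -0.035 to 0.103 with 1 library left out; in shoot from -0.020 to 0.218 with 1 left out; its difference between responses from -0.216 to 0.022; and its tissue difference with total scaling (0.32 under optimum and 5.02e-05 under low calcium) and voom (0.32 under optimum). Both settings moved the all-gene tissue median to 0.41 under optimum calcium, against -0.04. Under low calcium, total scaling moved it to 0.27, against 0.01. Whether the tissue sign changes of exchanger 1b follow from these shifts was not tested. Total scaling moved levels of exchanger 1b to 6.80 in optimum calcium root and 6.48 in optimum calcium shoot, and of exchanger 2 to 6.37 in low calcium root, 6.89 in optimum calcium root and 6.30 in optimum calcium shoot. The causes were not tested.

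Counts of called genes over the whole table moved most in root: 485, against 831 with root libraries alone, 228 at a log2 difference of at least 1, and 66 to 816 with 1 library left out. In shoot 2292 became 962 at a log2 difference of at least 1. The difference between responses gave 431, 267 with voom and 261 to 704 with 1 library left out. Root against shoot under low calcium gave 3311, and 2183 at a log2 difference of at least 1. Exchangers 1b and 2, with 19 to 194 reads per library, are less precisely counted than exchanger 1a in shoot.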
